A study of Mus musculus with 3 samples.

Results

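Ahnak and 8 other genes of very large cytoskeletal proteins were described in RNA bound to chromatin of mouse macrophages: the plakins Plec, Macf1 and Dst, the nuclear-envelope giant Syne1, the actin crosslinker Flna, the integrin activator Tln1, the nonmuscle myosin heavy chain Myh9 and the dystrophin relative Utrn. These 9 genes were taken, by symbol, from the 55536 annotated genes (22015 of them nuclear protein-coding). They were chosen from levels and isoform ratios measured in these same libraries, among them the count share of Ahnak and the isoform ratio of Plec, so those values are given as a description. All 9 matched a gene in the files.

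The cells were bone-marrow-derived macrophages (BMDM) of C57BL/6J mice, which are primary cells grown from marrow. All 3 libraries came from cells given 100 ng/ml Lipid A, the Toll-like receptor 4 agonist of bacterial lipopolysaccharide, for 60 minutes, and no untreated group was analysed here. RNA of the chromatin fraction was depleted of ribosomal RNA and sequenced as total RNA, with 13318395, 15352661 and 15812581 expected counts in genes in replicates 1, 2 and 3. The labelled starting RNA was 1000, 250 and 500 ng in that order. The labels number them as biological replicates but carry 1 donor entry for all and do not name separate animals, so calls over all genes measure the spread among these libraries alone, and that spread may be technical.

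Proteins of this group link actin filaments, intermediate filaments, microtubules and membranes to one another. AHNAK is a giant scaffold built mainly of repeats that binds the annexin A2 and S100A10 complex under the plasma membrane. Plakins carry actin-binding, plakin and spectrin-like modules, nesprins such as Syne1 join the nuclear envelope to actin, and talin, filamin and myosin II carry force between integrins and the actin cortex. In macrophages these proteins serve adhesion, spreading, migration and phagocytosis. RNA on chromatin holds transcripts that are still being made or processed, so a level here is a level of chromatin-bound RNA and not of cytoplasmic mRNA.

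The gene structure of Ahnak set it apart from the other 8. Ahnak (chr19:8989284-9076914, plus strand, mm10, GENCODE M21) has a main transcript, Ahnak-202 (chr19:8989284-9019196), of 18100 bases in 5 exons, and 1 exon of 17498 bases makes up 96.7% of it. That exon ranked 9 by length among the longest exons of 21853 nuclear coding genes, whose median was 1344 bases. Macf1 and Dst reach 23495 and 23279 bases in 98 exons each, and Syne1 reaches 27908 bases in 146 exons. Plec lies between, with an exon of 7412 bases that makes up 48.0% of a transcript of 15455 bases in 33 exons. Flna, Tln1 and Myh9 are split into 47, 57 and 41 exons, none over 1430 bases.

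The coding sequence of Ahnak-202, 16971 bases long, is repetitive, and any effect on its counts was not tested. Of its 31-base words, counted by position along the transcript, 27.6% occurred more than once in the transcript, against 0.441% in Plec and 0% in the longest coding transcript of each of the other 7. The most frequent 24-base word occurred 15 times, all inside the long exon and all at the same codon position, and 5 of the 14 gaps between neighbouring copies were 384 bases. The copies numbered 1, 8 and 15 are shown with 30 bases before and 36 after to let the repeat be seen; capitals mark the shared word, and the sequences are from the GENCODE M21 transcript, at chr19:9005064-9005153, chr19:9009555-9009644 and chr19:9014979-9015068 on the plus strand.
Ahnak copy 1: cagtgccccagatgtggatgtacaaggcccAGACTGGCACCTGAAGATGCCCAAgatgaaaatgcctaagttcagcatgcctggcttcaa
Ahnak copy 8: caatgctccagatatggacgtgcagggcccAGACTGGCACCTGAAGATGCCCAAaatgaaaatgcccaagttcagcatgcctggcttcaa
Ahnak copy 15: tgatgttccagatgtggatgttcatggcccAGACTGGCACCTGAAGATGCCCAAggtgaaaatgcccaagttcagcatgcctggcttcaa
Across the 90 bases, 78 were alike in all of the stretches shown. The repeats stay within the gene: 3 of 16425 distinct 31-base words of Ahnak, 0.0183%, occurred in a transcript of another gene, Sall1.

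Sequence shared with other genes was also low for Flna, at 0%, Macf1, at 0.116%, and Utrn, at 0.187%. It was highest for Dst, where 5.95% of the words occurred in other genes, and for Tln1, at 3.35%, where all 330 shared words lay in Creb3, which overlaps it on the opposite strand. Plec shared 1.16%, mostly with the overlapping Parp10, and Myh9 shared 1.28%, of which 100 words lay in its paralog Myh10. Syne1 shared 1.20%. How far shared words moved the counts of Dst, Tln1, Myh9, Syne1 and Plec was not tested, and the sources used here do not give the strand setting.

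Promoters were looked up in RefSeq (GRCm38.p6), from 250 bases before to 50 after each annotated start site, and 8 of the 9 genes matched, with 11 promoters. A GC box (GGGCGG, either strand) was found in 5 of the 11, those of Ahnak, Flna, Myh9, and 1 each of Dst and Syne1, against 35.7% of all 32851 promoters. A TATA box (TATAAA, either strand) was found in 2, that of Myh9 and 1 of Syne1, against 13.6%. Both matches were on the opposite strand, at 123 to 118 bases before the start site in Myh9 and 139 to 134 in Syne1. A match to the NF-kB consensus on either strand was found in 1, that of Flna, against 4.51%, and the serum response factor CArG box in 0, against 1.63%. None of the 22 matches overlapped another. The 150 bases before the start site are shown for Ahnak, as the highest gene, and for Flna, as the gene with the NF-kB match. Capitals mark matches, which are GC boxes in Ahnak (chr19:8989134-8989283, plus strand), and in Flna (chrX:74246535-74246684, minus strand) the NF-kB match at the first 10 bases, followed by GC boxes.
Ahnak promoter: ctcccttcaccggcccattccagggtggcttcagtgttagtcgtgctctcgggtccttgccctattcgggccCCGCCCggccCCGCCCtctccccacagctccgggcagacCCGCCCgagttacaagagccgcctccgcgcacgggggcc
Flna promoter: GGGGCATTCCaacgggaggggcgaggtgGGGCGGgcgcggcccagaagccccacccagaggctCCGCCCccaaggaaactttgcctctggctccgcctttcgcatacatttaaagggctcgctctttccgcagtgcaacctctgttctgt
These matches describe the letters only. The RefSeq start of Ahnak was the start of Ahnak-202, and that of Flna was the start of Flna-202, the highest transcript of each gene. In 300 bases the promoter of Ahnak held 22 CpG sites and 67.3% G and C, and that of Utrn-201 held 2 CpG sites and 46.0%. Utrn-201 held 19.7% of the coding TPM of Utrn. The start of the leading Utrn-205, with 59.4%, was not among the promoters looked up.

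Ahnak, the scaffold that gives the group its name, had a gene level of 865, 1581 and 1317 TPM in replicates 1, 2 and 3 (mean 1254 ± 362, SD, n = 3). TPM (transcripts scaled to 1 fixed total per library) is a share of all transcripts after division by length. It was the 7th, 4th and 4th highest nuclear coding gene by TPM and the highest by expected count in all 3 libraries, with 1.84%, 2.76% and 2.22% of gene counts. The next coding genes by count were Lilr4b at 0.889% ± 0.192 and Lilrb4a at 0.609% ± 0.101 (SD, n = 3), whose TPM, 2926 and 2743, was above that of Ahnak while their longest transcripts of any class were 4004 and 3769 bases. The 9 genes together took 3.21% ± 0.484 of gene counts (SD, n = 3), and Ahnak held 70.5% ± 3.64 of that.

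**Figure D1:**
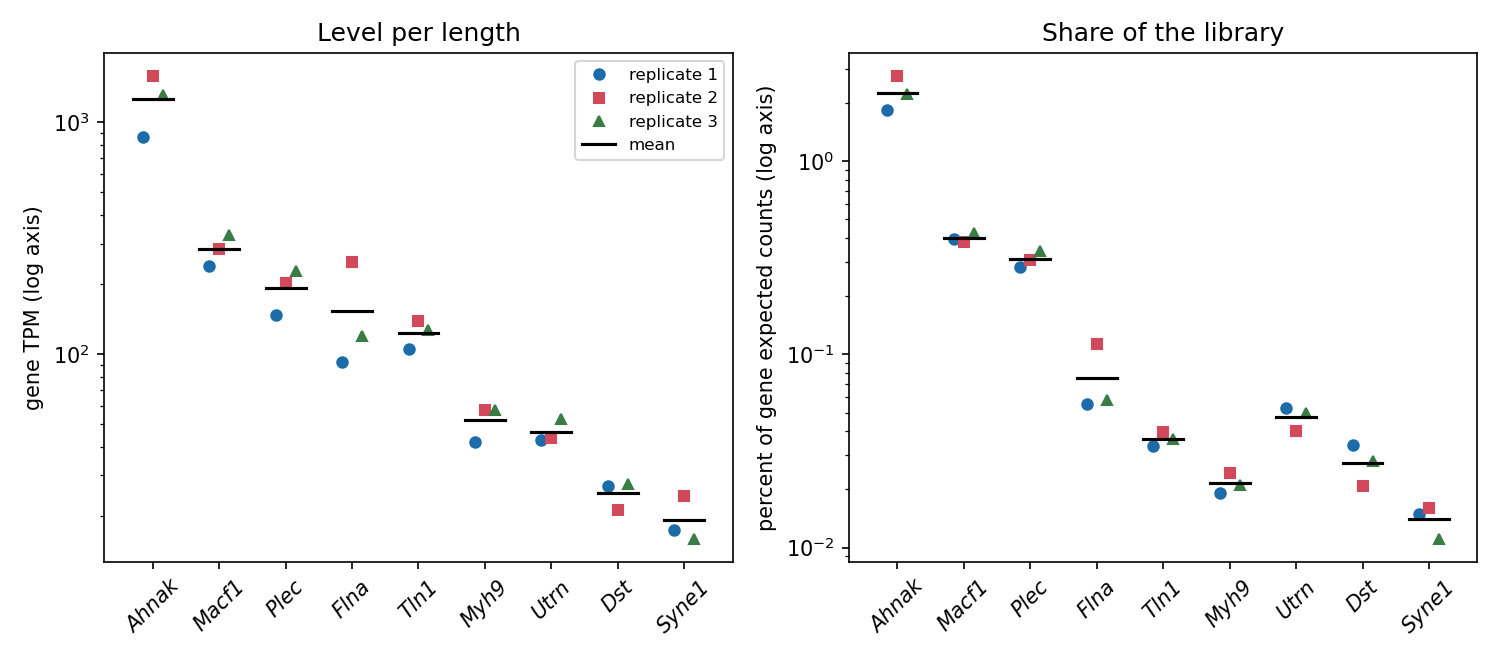
Left, gene TPM of the 9 genes on a log axis; right, their percent of gene expected counts on a log axis; points are the 3 libraries and black lines their means. Ahnak lies above every other member in all 3 libraries in both panels, and Flna shows replicate 2 apart from replicates 1 and 3.

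Few genes of such length had such a level. Of 426 coding genes with a transcript of at least 10 kb, 209 were detected, which here means 1 TPM or more in each library, and the median of those 209 was 22.8 TPM. Ahnak ranked 1 of the 426, followed by the cholesterol exporter Abca1 at 377 TPM and Macf1, and Plec ranked 9, Utrn 56, Dst 98 and Syne1 121. Of 94 coding genes with an exon over 10000 bases, the next after Ahnak were the cyclin-dependent kinase gene Cdk6 at 136 TPM and the Argonaute gene Ago3 at 88.5. Those ranks are descriptive, since Ahnak was chosen for its level. Flna, Tln1 and Myh9 have transcripts under 10 kb and are not among the 426.

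**Figure D2:**
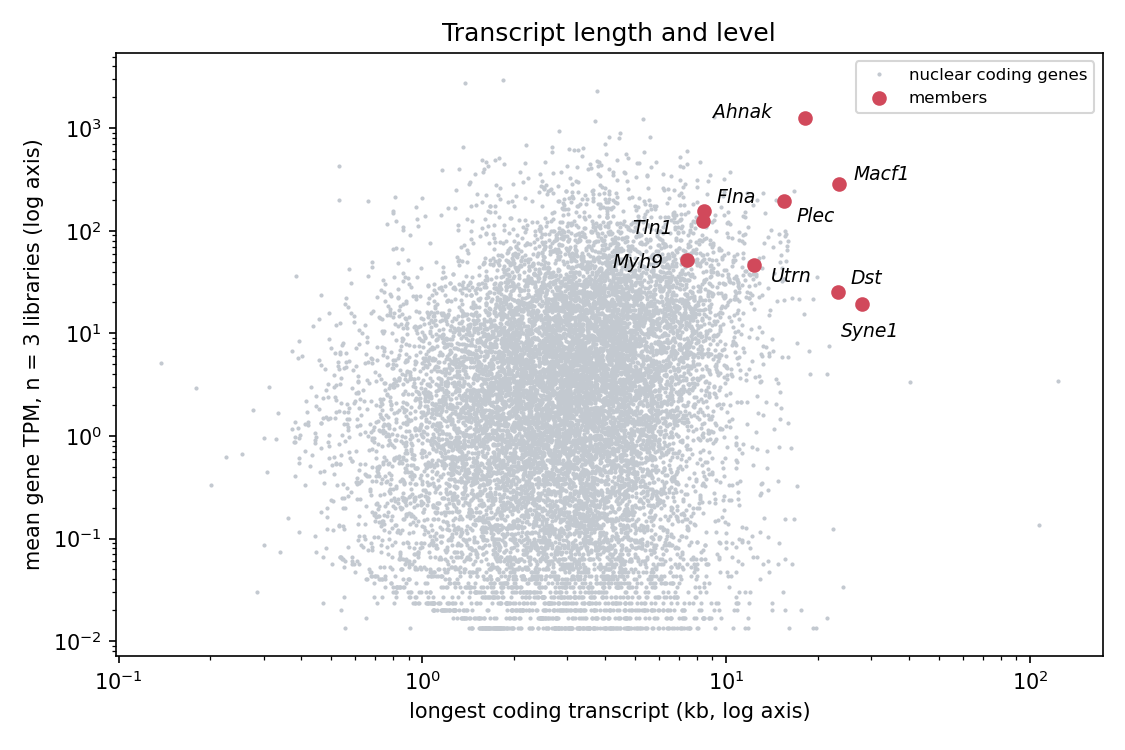
Mean gene TPM over the 3 libraries against the length of the longest coding transcript, both on log axes; grey points are nuclear coding genes with a mean TPM over 0.01 (13960 genes), red points the 9 members. The members lie at the right, at 7433 to 27908 bases, and Ahnak is the highest gene beyond 10 kb.

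The nuclear coding genes nearest to Ahnak over the 3 libraries, by Euclidean distance of log2(TPM + 1), were Gpnmb (distance 0.21), the transcription factor gene Zeb2 (0.30) and Malt1 (0.67). Gpnmb had 828, 1510 and 1154 TPM and Zeb2 had 1059, 1580 and 1245 TPM. Both followed the order of Ahnak over the libraries, low in replicate 1 and high in replicate 2, whereas Malt1, at 1241, 1180 and 1263 TPM, did not. The median of 6132 coding genes had the same order, at -0.31, 0.24 and 0.08 from the mean of the other libraries on the log2(TPM + 1) scale, where Ahnak was at -0.74, 0.57 and 0.17. By share of counts the neighbours were far below Ahnak, at 0.277% to 0.412%.

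Partners of AHNAK were measured at lower levels. Its paralog Ahnak2 had 51.6, 73.4 and 65.7 TPM (mean 63.6 ± 11.1, SD, n = 3), well below Ahnak in every library. Anxa2, the annexin that binds AHNAK, had 62.0, 113 and 76.6 TPM, and S100a10, its light chain, had 26.4, 79.5 and 42.9 TPM. Of the 7 genes of this list 5 were detected, and the muscle repair gene Dysf and the Schwann cell gene Prx had means of 0.0567 and 0.0133 TPM. All 9 members passed that threshold, as did 35.7% of the 22015 nuclear coding genes; nothing is read from the members' count, because levels chose them.

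Among the plakins, which crosslink filament systems, Macf1, the microtubule and actin crosslinker, had 241, 284 and 326 TPM (mean 283 ± 42.7, SD, n = 3). Plec, which anchors intermediate filaments, had 148, 203 and 228 TPM (mean 193 ± 40.6, SD, n = 3). Macf1 exceeded Plec in each library, by 90.2 TPM on average against a larger SD of 42.7, but the order turned in some alternatives. The cause was not tested. Dst, the dystonin gene, had 26.9, 21.3 and 27.7 TPM (mean 25.3 ± 3.49, SD, n = 3), below both in every library. In the second transcript table Plec had a mean of 357 TPM and Macf1 290, a log2 ratio of Macf1 to Plec of -0.30 against 0.55 in the gene table. Per base of the longest transcript it was -0.25, and over transcripts at least 80% as long as the longest, a comparison added after the values were seen, it was -0.57.

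The other 4 plakin genes were near 0. The cornified-envelope plakin Ppl had a mean of 0.490 TPM, Evpl 0.0200, and the desmosomal plakin gene Dsp and the epiplakin gene Eppk1 0.00333 each. So 3 of 7 plakins (42.9%) were detected, beside 35.7% of nuclear coding genes. Those 3 are members, which were chosen with levels known, so nothing is read from this count.

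Syne1, which encodes nesprin-1 of the linker between nucleoskeleton and cytoskeleton (LINC complex), had the lowest level of the 9, at 17.4, 24.4 and 16.0 TPM (mean 19.3 ± 4.49, SD, n = 3). In its own list Lmna had 51.5 ± 13.2 TPM, Sun2 25.5 ± 2.71 and Syne3 22.6 ± 6.57 (SD, n = 3 each). Syne1 was below Lmna and Sun2 in each library, and below Syne3 in replicates 1 and 3 only. Those genes encode lamin A/C, a SUN-domain partner of nesprins and nesprin-3, a nesprin known to bind plectin. Of 13 genes of the LINC complex and lamina, 11 were detected, with Lmnb1, at 0.470 TPM, and Syne4, at 1.06, the lowest.

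Flna, the actin crosslinker filamin A, varied most between libraries. It had 93.0, 250 and 120 TPM (mean 154 ± 83.7, SD, n = 3), with replicate 2 above the other libraries. On the log2(TPM + 1) scale replicate 2 exceeded the mean of the others by 1.23, where the median of 6132 coding genes with at least 100 mean counts was 0.24, and the SD of Flna, 0.73, was at percentile 99.1. Replicate 2 had the smallest starting RNA, 250 ng; its part in the difference was not tested, and library and input cannot be told apart. Neither can fewer cells with the RNA and less RNA per cell in a bulk sample. The spread of Ahnak, 0.45, was at percentile 90.0, and that of the other 7 members between percentiles 23.1 and 70.1.

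The muscle filamin gene Flnc was at 0.00333 TPM. The filamin partner Mical1, an actin-oxidizing enzyme, had 20.6, 38.3 and 17.4 TPM, and Arhgap24, a Rac-directed GTPase regulator that binds filamin A, had 13.3, 21.8 and 19.3. Of 10 genes of this list 7 were detected, and Filip1 had 0 counts.

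Tln1, which encodes the integrin activator talin-1, had 105, 139 and 127 TPM (mean 123 ± 17.4, SD, n = 3), and its paralog Tln2 0.107 TPM. Plec exceeded Tln1 in each library, while Flna exceeded both in replicate 2 and neither in replicate 1 or 3. Of 32 genes of talin and integrin adhesion 24 were detected. The integrin chains Itga5, Itgav and Itga4 exceeded Tln1, at 492 ± 62.9, 424 ± 73.9 and 219 ± 25.7 TPM (SD, n = 3). The kindlin Fermt1 and the parvin Parva were at 0 and 0.00667 TPM. Among their paralogs, the kindlin Fermt3 had 44.5 TPM, Fermt2 0.00667, and the parvins Parvb and Parvg 25.1 and 3.45.

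Myh9, the heavy chain of nonmuscle myosin IIA, had 42.0, 57.3 and 57.4 TPM (mean 52.2 ± 8.89, SD, n = 3), below Tln1 in each library. Utrn, the utrophin gene, had 42.7, 43.4 and 52.4 TPM (mean 46.2 ± 5.37, SD, n = 3), above Myh9 in replicate 1 only. Utrn exceeded Dst in each library, by 20.8 TPM against a larger SD of 5.37, and Dst exceeded Syne1 in replicates 1 and 3 only. Of the 8 pairs of neighbours in the order of mean TPM, 4 were thus apart, in the sense that one was higher in all 3 libraries by more than the larger SD.

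The myosin II list had 9 of 13 genes detected, led by the kinase Rock2 at 61.3 ± 5.38, the light chain Myl6 at 47.4 ± 5.75 and the phosphatase subunit Ppp1r12a at 42.2 ± 11.3 TPM (SD, n = 3). The other nonmuscle heavy chains were low, with Myh10 at 3.69 TPM and Myh14 with 0 counts, though 5.58 TPM in the second table. The partners of Utrn were low: of 15 genes of the utrophin and dystrophin complex 3 were detected, the other 2 being the syntrophin Sntb2 at 4.71 ± 0.915 and the dystrobrevin Dtnb at 3.78 ± 0.963 (SD, n = 3). Sgcb, a sarcoglycan, had 1.33 TPM, the dystrophin gene Dmd had 0.0900, and the sarcoglycan Sgcd had 0 counts. In all, 8 of the 15 passed with the second transcript table, and 5 without replicate 1. Over all 22015 nuclear coding genes, 10966 passed with the second table and 8345 without replicate 1.

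Lists without members gave the setting. Of 26 genes of the actin core and its nucleators 25 passed, with the intermediate filament gene Vim at 692 ± 145, the actin bundler Lcp1 at 344 ± 23.3 and Actr3 at 227 ± 33.1 TPM (SD, n = 3), so the libraries of Ahnak lay above those of all 3, and in each library Macf1 was below Lcp1 and above Actr3. Of 20 spectrins, ankyrins and band 4.1 genes 9 passed, led by Sptan1 at 267 ± 37.6 TPM, with Add2 and Epb41l4b at 0 counts. Of 17 muscle giants only Xirp1 passed, at 1.65 ± 0.780 TPM, while titin (Ttn) had 0.137 TPM and nebulin (Neb) 0.123. Giant genes outside the cytoskeleton passed in 32 of 45 cases, with Rnf213 at 245 ± 39.7, Lyst at 233 ± 59.1 and Huwe1 at 199 ± 15.8 TPM (SD, n = 3). The median log2(TPM + 1) was 5.39 in the actin core list, 4.67 in the giants outside the cytoskeleton, 0.57 in the plakins and 0.00 in the muscle giants, beside 0.29 over all nuclear coding genes.

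**Figure D3:**
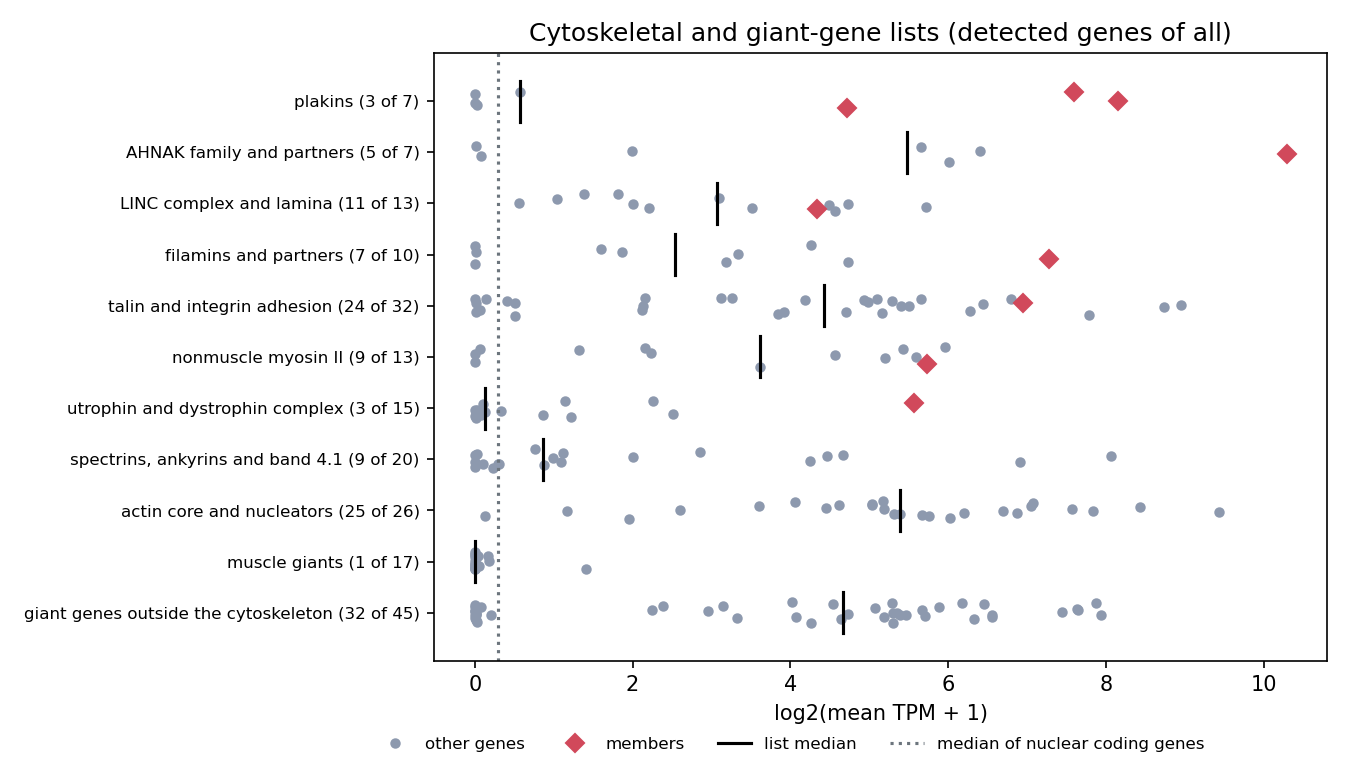
Level of each gene as log2(mean TPM + 1) by list, with the number detected of all in the list; red diamonds are members, black ticks list medians and the dotted line the median of nuclear coding genes. Ahnak lies at the far right, and the muscle giants lie near 0 with a median of 0.00.

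Markers of the labelled cell type were present: 11 of 12 macrophage genes were detected, with a summed level of 564 to 824 TPM, and Cx3cr1 was at 0.0433. Of 8 skeletal and smooth muscle markers 0 passed, with a sum of 1.10 to 2.27 TPM and Myod1, Myog, Acta1 and Des at 0. None of 8 epithelial and keratinocyte markers passed, with a sum of 0 to 0.0400 TPM, and none of 8 fibroblast markers, with a sum of 0.360 to 1.62. Of 8 endothelial markers only Kdr passed, at 1.95 TPM, and T cell, B cell and neutrophil markers passed in 0 cases, with sums of at most 2.16, 0.0900 and 0.340 TPM. Detected markers by the second table were 3 T cell, 2 B cell, 2 fibroblast, 1 muscle, 1 endothelial, 0 epithelial and 0 neutrophil genes, with Cd3d at 25.0, Thy1 at 9.69, Ebf1 at 4.32 and Ms4a1 at 3.05 TPM, and 12 of the 12 macrophage markers.

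The members differed in which annotated transcripts held their RNA. In Ahnak the full-length Ahnak-202 had 732, 1370 and 1128 TPM and the 2200-base Ahnak-203, which starts 8.61 kb into the gene and ends at base 9002286, before any copy of the repeat, had 131, 209 and 188 TPM. Ahnak-202 thus held 85.7% of TPM and 98.2% ± 0.160 of expected counts of the gene (SD, n = 3). Ahnak has no transcript annotated with a retained intron, and neither have Macf1 and Tln1, so no retained-intron ratio exists for these genes.

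A transcript at least 80% as long as the gene's longest is called long here. Long transcripts held 99.6% ± 0.242 of expected counts in Plec, 93.3% ± 0.778 in Flna, 92.9% ± 1.42 in Utrn and 92.6% ± 1.25 in Tln1 (SD, n = 3). They held less in Macf1, at 72.1% ± 3.67, Myh9, at 59.1% ± 4.41, and Syne1, at 50.0% ± 2.44, and least in Dst, at 26.2% ± 0.888 (SD, n = 3). These shares depend on the 80% limit. The longest transcript of Dst, Dst-203 of 23279 bases, had 0 TPM. Dst-202 and Dst-215, of 17212 and 16340 bases, fell below the limit while holding 33.3% and 13.4% of the counts of Dst. Macf1-204, of 18957 bases, passed it with 42.4% of the counts of Macf1. By TPM, which weights short transcripts up, the shares of long transcripts fell to 28.6% in Tln1, 11.2% in Syne1 and 10.4% in Dst. Shares among transcripts of 1 gene are the quantifier's estimates, and in the second table long transcripts of Plec held 88.2% of counts and 44.3% of TPM, against 93.1% of TPM in the first.

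**Figure D4:**
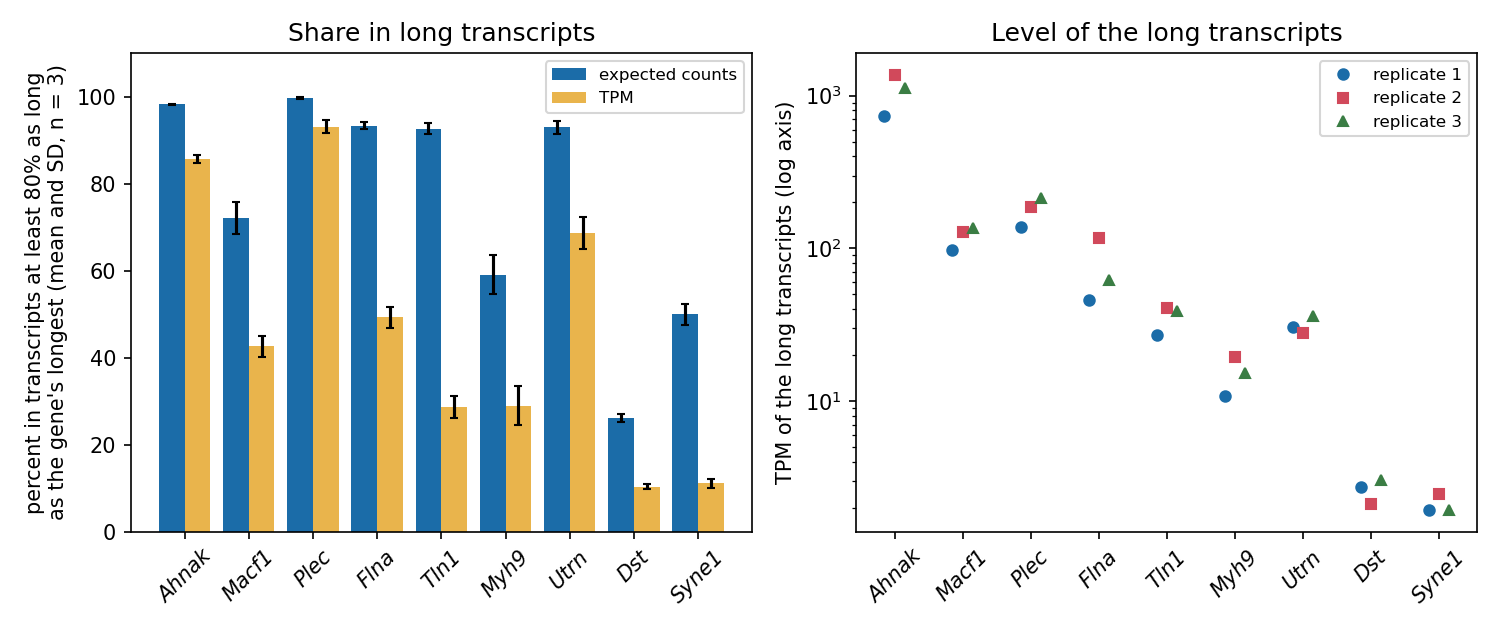
Left, percent of each gene's expected counts and TPM in transcripts at least 80% as long as its longest, as mean and SD of 3 libraries; right, the TPM of those transcripts in each library on a log axis. Ahnak and Plec lie at 98.2% and 99.6% of counts, Dst at 26.2%, and by long transcripts alone Ahnak stays highest while Dst and Syne1 fall to 2.64 and 2.12 TPM. Dst-202, of 17212 bases and with 33.3% of the counts of Dst, lies below the 80% limit.

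Tln1 showed the widest gap between counts and TPM. Its full coding transcript Tln1-201 held 92.6% of counts at 27.0, 40.8 and 38.7 TPM, while the 283-base noncoding Tln1-204, inside the gene, had 50.5, 61.5 and 52.5 TPM from 1.35% of counts. The gene TPM of Tln1 was therefore mostly that of short processed transcripts, which together held 71.3% ± 2.57 of its TPM (SD, n = 3).

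The quantifier spread the TPM of the plakins over transcripts with many annotated starts, and no start was measured directly. Macf1 was led by Macf1-204, of 18957 bases and starting 208 kb into the gene, at 65.2, 79.3 and 86.6 TPM, followed by the shorter Macf1-212, at 53.0, 76.4 and 65.7. The transcripts from the first annotated start of Macf1 held 15.6% of its coding TPM. Plec was led by Plec-201 at 38.0, 67.7 and 77.7 TPM, from a start 36.9 kb into the gene, and Plec-206, at 44.8, 51.0 and 65.2 TPM, from 3.08 kb. Those 2 starts held 31.8% and 28.7% of the coding TPM of Plec, but 16.5% and 8.19% in the second table. In Dst no start held more than 28.5% of coding TPM, and the highest transcripts were Dst-202, of 17212 bases, at 4.53 ± 0.804 TPM and the retained-intron Dst-207 at 4.29 ± 0.950 (SD, n = 3).

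By TPM, Syne1 was led by short transcripts of the 3′ part of the gene, while by expected counts the full transcript Syne1-205 held 50.0% and the short Syne1-206 and Syne1-202 held 33.2% and 11.5%. Syne1-206, of 3894 bases and starting 357 kb into the gene, had 10.2, 12.8 and 9.12 TPM, and Syne1-202, of 3443 bases and starting at 482 kb, had 3.83, 5.23 and 3.66. Syne1-205 had 1.94, 2.48 and 1.95 TPM, below both in each library. In Utrn the reverse held, with the full-length Utrn-205 at 23.8 ± 3.25 TPM and Utrn-201 at 7.90 ± 1.02 (SD, n = 3).

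Retained-intron isoforms were compared with protein-coding isoforms of the same gene as log2 of the ratio of their summed TPM, with 0.5 added to each. The classes are labels of the annotation. In chromatin RNA, isoforms that keep an intron cannot be told apart here from transcripts not yet fully made or spliced. Over 5601 genes tested against 0 with limma, retained-intron isoforms were higher in 35.5% and coding isoforms in 31.7% at a Benjamini-Hochberg adjusted p under 0.05, so a call in either direction was common. The median ratio of all genes was 0.08. Isoform ratios entered the choice of the members, so those of the 6 members with both classes are given as a description, with no test.

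In Myh9 retained-intron transcripts had 25.7, 36.7 and 38.9 TPM and coding transcripts 16.2, 20.5 and 18.5. The ratio was 0.84 (SE 0.16, n = 3), with retained-intron isoforms higher by TPM in all 3 libraries. By expected counts, retained-intron transcripts held 40.1% of the gene and coding transcripts 59.9%. The leading retained-intron transcripts were Myh9-206, at 11.1, 15.6 and 16.7 TPM, and Myh9-205. Both start near the start of the gene and end 55.1% and 36.3% of its length before its end. The full Myh9-201 had 10.9, 19.5 and 15.4 TPM, above Myh9-206 in replicate 2 only.

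Flna had 47.2, 132 and 58.2 TPM in retained-intron and 43.8, 115 and 61.5 in coding transcripts, with replicate 2 high in both classes. Its ratio was 0.08 (SE 0.14, n = 3), and it was -0.21 in the second table. By library the ratios were 0.11, 0.20 and -0.08. With the mean TPM per transcript the ratio was 0.64. Its 4 retained-intron transcripts started 79.7% to 87.4% into the gene, and the highest, Flna-211, had 20.2, 47.4 and 25.8 TPM. The coding Flna-202 had 33.7, 84.8 and 47.4 TPM.

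Utrn had 37.5, 36.9 and 45.9 TPM in coding and 4.30, 6.33 and 5.07 in retained-intron transcripts, a ratio of -2.83 (SE 0.18, n = 3). Syne1 had 15.9, 20.5 and 14.7 against 1.47, 3.88 and 1.28 TPM, a ratio of -2.81 (SE 0.21, n = 3). Coding isoforms were higher in every library for both, and the ratios lay at percentile 2.9 of all genes in the fit. Dst had 16.8, 14.0 and 19.1 TPM in coding and 7.99, 5.58 and 6.78 in retained-intron transcripts, a ratio of -1.24 (SE 0.16, n = 3). The ratio of Dst was -0.20 in the second table, and with the mean TPM per transcript it turned to 0.13.

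In Plec coding transcripts had 146, 198 and 222 TPM and the single retained-intron transcript 2.85, 5.71 and 5.90, with ratios of -5.45, -5.00 and -5.12. Plec has 21 coding transcripts and 1 with a retained intron, and taking a mean over transcripts in place of the sum gave a ratio of -0.87.

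**Figure D5:**
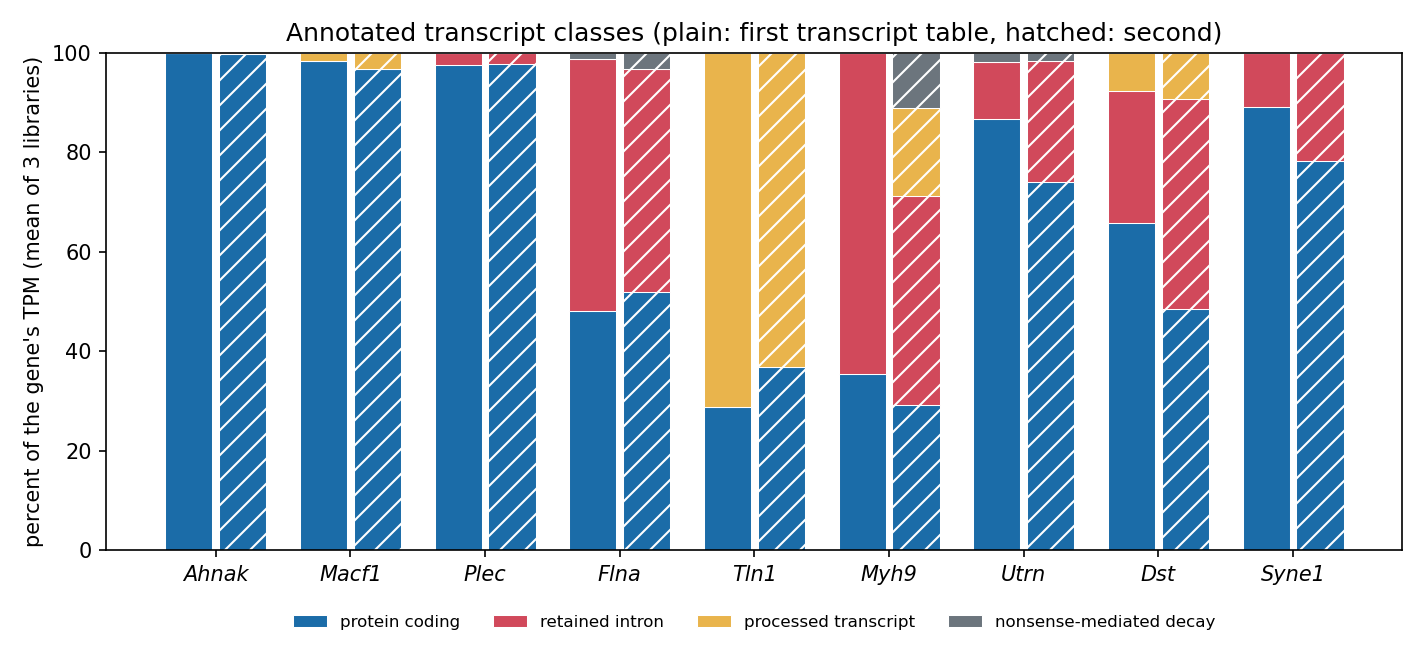
Percent of each gene's TPM in annotated transcript classes, as the mean of 3 libraries, with the first transcript table in plain and the second in hatched bars. Myh9 holds 64.4% and Flna 50.7% of TPM in retained-intron transcripts in the first table, and Tln1 71.3% in processed transcripts, while Ahnak, Macf1 and Plec are almost wholly coding. By expected counts those shares were lower, at 40.1% in Myh9, 6.67% in Flna and 7.36% in Tln1. The annotation holds no retained-intron transcript of Ahnak or Macf1, and 1 of Plec beside 21 coding.

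Genes that overlap members by position were checked, because reads there may be shared. Ahnak and Flna overlap no other annotated gene. Dst overlaps 7 genes, and 4 of them had a mean TPM of at least 1: Gm37354 and Gm38157, models to be experimentally checked (TEC) on its own strand, at 41.8 ± 7.20 and 14.8 ± 1.68 TPM, and Gm26788 and Gm28631 on the other, at 3.18 and 3.06. Gm37354 was thus above Dst itself per length, with 1577 counts on average against 4041. Parp10 on the strand of Plec had 26.1 ± 3.66 TPM, and Creb3 opposite Tln1 had 12.7 ± 2.51 (SD, n = 3). The overlapping genes above 1 TPM in Macf1 (Gm12924 and Gm12926), Utrn (Gm48798) and Syne1 (Gm25694 and Gm48836) were at most 1.74 TPM. The second table gave Gm48836, on the strand of Syne1, 870 TPM, and it gave Gm25720 and Mir1942 in Plec 295 and 387 TPM and Gm22107 in Myh9 122 TPM, the last 3 of which had 0 in the gene table.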

How the data were processed

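Chromatin-fraction total RNA-seq of 3 libraries of 1 group was analysed. The authors deposited, per the file headers, expected counts and TPM by gene and by transcript, and in a second transcript table estimated counts and TPM, for each library without pooling. The labels give mm10 and the deposited text files GENCODE M21. Programs, versions and strand setting: not given in the sources used here. Spike-in and other non-gene entries were left out of count totals. Levels are the authors' TPM as deposited; nuclear coding genes sum to 189266 to 238666 TPM of it.

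The members, gene lists and tests were chosen with earlier results of these data known. Isoform ratios (pseudocount 0.5 TPM, mean summed TPM of at least 1) were fitted over all genes with limma 3.58.1 in R 4.3.3, intercept only, with a variance trend on the mean summed TPM and Benjamini-Hochberg adjustment, after a test on simulated data; members' ratios and SE come from that fit, with no p-value printed. Log2 levels used a pseudocount of 1. Python was 3.11.15, with pandas 2.3.3 and numpy 2.4.6. Genes named are the members, the 3 highest and 2 lowest other genes of each list by mean TPM, the 3 genes nearest to Ahnak, overlapping genes at a mean TPM of at least 1 and each member's 2 highest transcripts, of which the text gives a selection. A few others, named for a point in the text, were chosen after their values were seen. They are Abca1, Cdk6, Ago3, Lilr4b, Lilrb4a, Tln2, Myh10, Dmd, Fermt2, Fermt3, Parvb, Parvg and Actn2. Further transcripts, overlapping small RNA genes and markers were chosen likewise. The second table, other length scalings, filters, pseudocounts and left-out libraries were tried as alternatives. A few genes of the lists are not reported here.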

Additional observations from a re-analysis of the deposited data

How the results depend on the processing

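No paired analysis was possible because the series has 1 group. Ahnak stayed above Macf1 in the 7 alternatives tried; its mean was 5684 when TPM was rescaled to coding genes, 22741 as CPM and 4171 per base of the longest transcript, where 1254 was reported, and leaving out 1 library gave 1091 to 1449. The number of neighbour pairs apart was 7 of 8 by CPM, and 4 to 6 without 1 library. Macf1 over Plec turned from 0.55 to -0.30 in the second table, -0.25 per longest transcript and -0.57 for long transcripts. Retained-intron calls rose from 1987 to 3205 genes in the second table; coding calls fell from 1778 to 1115 with the mean TPM per transcript and to 1112 at a minimum of 5 TPM. Without 1 library they were 1708 to 1840 and 1497 to 1603. Among member ratios, that of Dst was -0.20 in the second table and 0.13 with the mean per transcript, where -1.24 was reported, and that of Flna -0.21 and 0.64, where 0.08 was reported; the cause was not tested. Detected genes of the LINC list were 7 at a minimum of 5 TPM, and of the spectrin list 15 in the second table. Those of the utrophin list were 5 at 0.5, 1 at 5, 8 in the second table and 3 to 5 without 1 library. Muscle giants were 0 at 5 and 6 in the second table. Over all nuclear coding genes, of which 7862 were detected in the reported setting, the number was 9093 at 0.5 and 4465 at 5. That number was 10966 in the second table and 7928 to 8345 without 1 library. The file gives estimated counts, so a level near 0 rests on few reads and 3 libraries.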
